A study of Mus musculus with 14 samples.

Results

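The 35 genes described here encode factors that build ribosomes in the nucleolus, together with Myc, the transcription factor that drives many of them. They were chosen by name, from known function, as Myc and 34 nucleolar or ribosome assembly genes, and each was read from 1 probe set that matches a single gene, the brightest where a gene had more. Earlier results of these data were known when the list was made, so its shares beside those of all genes are descriptions. All 35 were measured and tested, out of 19937 genes with such a probe set and 14438 genes tested, and all 35 lay above the filter on dim signal on all 14 arrays. That filter is the 40th percentile of an array. Some values below lie under the median of all tested genes on their array, among them Myc and Gnl3 on WT KLRG1hi 1 and Utp15 on WT KLRG1lo 3. For 34 genes 1 such probe set exists, and Fbl has 2.

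The arrays carried RNA of mouse effector CD8+ T cells, sorted by flow cytometry on day 6 after infection with Listeria carrying ovalbumin. The cells came from fetal liver chimeras on C57BL/6J, and were moved into congenic hosts the day before infection. OT-I cells, which bear 1 T cell receptor for an ovalbumin peptide, are named for every group but the double knockout. KLRG1 is a surface receptor that marks short-lived effector cells when high, while KLRG1lo cells include those that give rise to memory. The groups were wild-type (WT) KLRG1hi cells with 3 arrays, WT KLRG1lo cells with 5, and KLRG1lo cells lacking Id2 (Id2KO), Bim (BimKO) or both (Id2KOBimKO) with 2 each. Id2 is an inhibitor of E protein transcription factors, and Bim, the product of Bcl2l11, is a protein that triggers cell death. The series asks how Id2KO KLRG1lo cells differ from those with Id2. How the alleles were made, and whether replicates came from separate animals, are not given in the sources used here, so each p-value reflects variation among arrays only, some of which may be technical.

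Making ribosomes starts with RNA polymerase I, which copies the ribosomal RNA genes. Particles built on small nucleolar RNAs then modify and cut the transcript, and separate sets of factors assemble the small and the large subunit. Activated CD8+ T cells raise this machinery as they grow and divide, and Myc, which binds the sequence CACGTG together with its partner Max, is a main driver of that growth.

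CACGTG reads the same on both strands, so 1 search covers both. In RefSeq promoters of GRCm38.p6, from 250 bases before to 50 after each gene's start, 29 of the 35 genes were matched by symbol, and 7 of these (24.1%) held the motif: Tsr1, Nop2, Wdr43, Pes1, Ltv1, Mybbp1a and Utp20. Of 76 further ribosome biogenesis genes matched, 16 (21.1%) held it, and of all 27025 genes with such a promoter 2187 (8.09%) did. All 35 genes were tested on the arrays, while the 27025 include genes that were not, so these sets are unlike. The 6 genes not matched were Myc, Fbl, Rrp12, Bop1, Rrs1 and Npm1. A match is a description of the letters, and binding was not measured. The stretches of the 4 genes with the smallest unadjusted p in any comparison are shown with the motif in capitals, to place it near the start of genes whose signals are described next. The motif begins 24 bases after the start in Tsr1, 60 before it in Nop2, 17 after it in Wdr43 and 2 after it in Pes1. All 4 are on the plus strand, at chr11:74898064-74898109, chr6:125131783-125131868, chr17:71616192-71616237 and chr11:3963937-3963982 in that order.
Tsr1: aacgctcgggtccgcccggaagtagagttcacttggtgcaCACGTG
Nop2: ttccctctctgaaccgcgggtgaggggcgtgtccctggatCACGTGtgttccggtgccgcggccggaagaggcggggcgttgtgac
Wdr43: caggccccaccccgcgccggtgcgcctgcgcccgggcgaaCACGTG
Pes1: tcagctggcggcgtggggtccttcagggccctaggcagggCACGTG

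Several features of the arrays bear on these genes and are given before the results. The arrays differed in spread, taken as the interquartile range of log2 signal over all probe sets, which ran from 2.44 to 2.87. On 5 arrays, WT KLRG1lo 3, 4 and 5, BimKO 2 and Id2KOBimKO 2, the log2 signal of Cd74, an antigen presentation gene high in B cells, was 7.77 to 8.73, against 4.67 to 6.25 on the other 9. The Id2KO arrays alone were low in Xist (4.47 and 4.99, against 8.37 to 10.36 elsewhere) and high in the Y-linked Eif2s3y (7.39 and 8.20, against 2.92 to 3.66), so Id2 status and sex cannot be told apart in the comparison with WT. Klrg1 was 4.76 higher on the WT KLRG1hi arrays, and Id2 was 1.13 lower on the Id2KO arrays (limma, adjusted p = 0.0162). For Id2KOBimKO the Id2 difference was -1.19 against WT KLRG1lo (limma, adjusted p = 0.0182). Against BimKO it was -1.10 and did not pass (limma, unadjusted p = 0.000122, adjusted p = 0.587), though each Id2KOBimKO array lay below each BimKO array. Id2 still read 9.73 and 9.88 on the Id2KO arrays and 9.64 and 9.84 on the Id2KOBimKO arrays. Bcl2l11 had a mean of 7.51 in BimKO and 7.60 in WT KLRG1lo, so the Bim status rests on the labels. T cell markers had medians of 10.5 to 11.1 on every array.

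The lowest level of the 14 arrays lay on WT KLRG1hi 1 for 20 of the 35 genes, on WT KLRG1lo 3 for 7 and elsewhere for the rest. The highest lay on Id2KO 2 for 20 genes and on Id2KO 1 for 6. The median over the 35 genes was 7.04, 7.28 and 7.56 on the WT KLRG1hi arrays and 7.66, 7.89, 7.27, 7.36 and 7.48 on the WT KLRG1lo arrays 1 to 5. It was 7.97 and 8.11 on the Id2KO arrays, 7.75 and 7.69 on the BimKO arrays and 7.95 and 7.71 on the Id2KOBimKO arrays. The 2 WT groups overlapped, and the Id2KO pair stood above every WT array. The same median followed the spread of the arrays, from 7.04 on the array of least spread (WT KLRG1hi 1, 2.44) to 8.11 on that of most (Id2KO 2, 2.87). At like spread the KLRG1hi arrays were the lower ones: WT KLRG1hi 3, with a spread of 2.84, had 7.56, while WT KLRG1lo 2, with 2.82, had 7.89 and Id2KO 1, with 2.83, had 7.97. The median signal of all tested genes was 6.58 to 6.64 on every array.

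**Figure D1:**
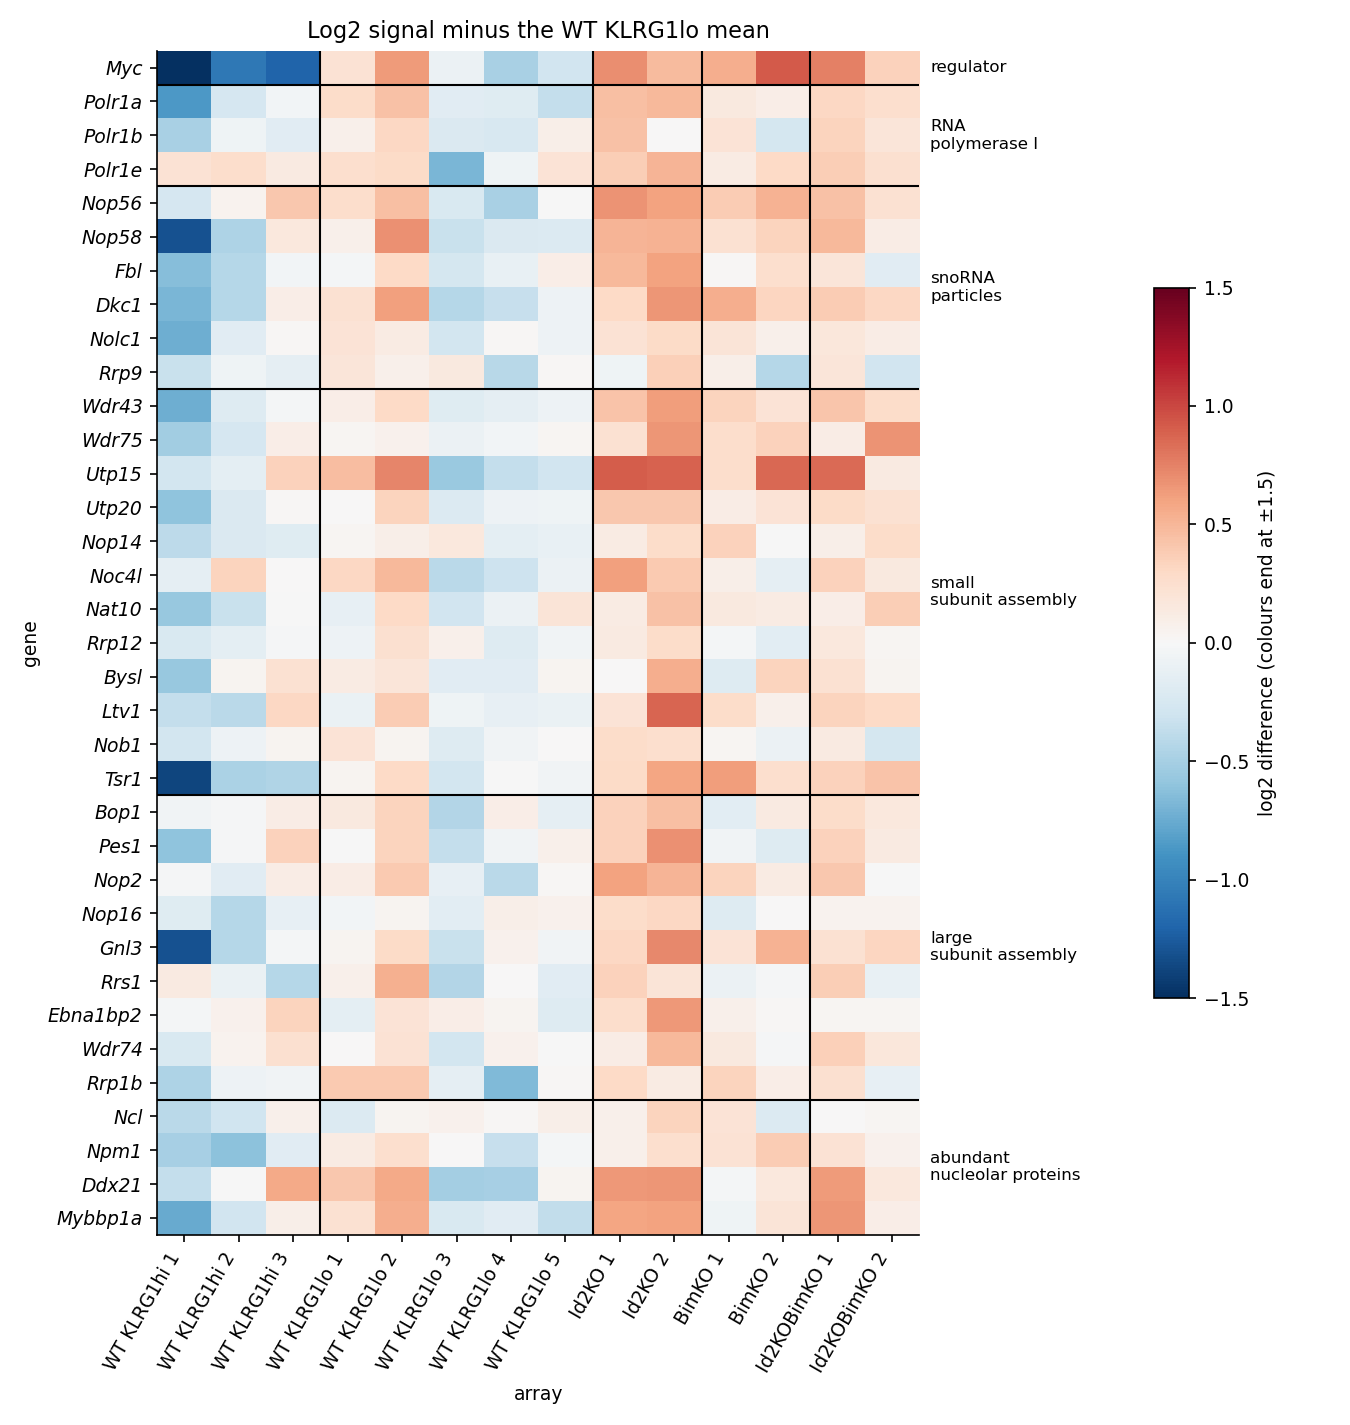
Log2 signal of each of the 35 genes (rows, grouped by role) on each of the 14 arrays (columns, in groups parted by vertical lines), minus the gene's mean over the 5 WT KLRG1lo arrays; blue is lower and red is higher, and the colour scale ends at 1.5 on either side. Myc is blue on all 3 WT KLRG1hi arrays, most rows are bluest on WT KLRG1hi 1, and most are red on both Id2KO arrays.

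In WT cells, Myc had the largest difference of the 35 genes between KLRG1hi and KLRG1lo cells. Its log2 signal was 5.83, 6.44 and 6.31 on the KLRG1hi arrays and 7.73, 8.16, 7.42, 7.02 and 7.22 on the KLRG1lo arrays. The groups did not overlap, and every KLRG1hi array lay below the lowest KLRG1lo array. Myc fell by 1.32 on the log2 scale in KLRG1hi cells (SE 0.22, 95% interval -1.79 to -0.85), which is 2.50-fold lower, with an adjusted p of 0.00560 (limma, Benjamini-Hochberg over 14438 genes). It was the only one of the 35 to pass at an adjusted p under 0.05. Of all genes tested 0.263% passed in the lower direction and 0.942% in either. Parting the arrays into 2 sets by the signal of probe sets that name no gene, the difference was -1.81 within the first set and -0.92 within the second. Without the 5 arrays of high Cd74 it was -1.75 (adjusted p = 0.0141, an alternative chosen after seeing the data). With each array centred on its median it was -1.28 and just missed the threshold (adjusted p = 0.0511).

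The differences of the other 34 genes were smaller, and none passed. Of the 35 genes, 28 had a negative difference, against 49.5% of all genes tested, and the median difference was -0.21, against 0.00 over all genes. 5 genes had an unadjusted p under 0.05 in the lower direction (2.86% of all genes did), and 3, Myc, Tsr1 and Nop14, had KLRG1hi arrays all below the KLRG1lo arrays (1.77% of all genes did). This median also depended on which arrays entered. It was -0.48 within the first background set, 0.13 within the second, where KLRG1hi had 1 array, -0.39 without the 5 arrays of high Cd74 and -0.10 without WT KLRG1hi 1.

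Among the factors of small subunit assembly, Tsr1, which keeps late precursors from translating too early, came closest to the threshold. Its log2 signal was 6.64, 7.54 and 7.56 in KLRG1hi cells and 8.06, 8.31, 7.73, 8.0 and 7.96 in KLRG1lo cells. The arrays did not overlap, and WT KLRG1hi 1 was by far the lowest. The difference was -0.77 (SE 0.20, adjusted p = 0.0980, limma). It passed under 4 of 22 alternatives, among them the fit without WT KLRG1hi 3 (adjusted p = 0.0419). For 11 of the 12 small subunit factors the difference was negative, with a median of -0.19, and Noc4l, a partner of Nop14, was the exception at 0.07. Nop14 itself had a difference of -0.26 (SE 0.14, adjusted p = 0.795).

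Of the large subunit factors, 6 of 9 had a negative difference, and the median was -0.09. Roles were not compared by a test. Gnl3, also called nucleostemin, a GTPase of the nucleolus of dividing cells, had log2 signals of 5.44, 6.31 and 6.71 in KLRG1hi cells and 6.78, 7.03, 6.40, 6.80 and 6.69 in KLRG1lo cells. Here the groups overlapped, since WT KLRG1hi 3 lay above 2 of the KLRG1lo arrays. The difference was -0.59 (SE 0.22, adjusted p = 0.451). Bop1 and Pes1, which act in 1 complex in processing of the large subunit RNA, had differences of 0.01 and -0.09.

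The abundant nucleolar proteins had a median difference of -0.26. Npm1, or nucleophosmin, a histone and ribosome chaperone, had log2 signals of 9.27, 9.16 and 9.60 in KLRG1hi cells and 9.89, 10.03, 9.79, 9.43 and 9.74 in KLRG1lo cells. WT KLRG1hi 3 lay above WT KLRG1lo 4 alone. The difference was -0.43 (SE 0.15, adjusted p = 0.389), while Ddx21, an RNA helicase, had 0.07. Among the proteins of small nucleolar RNA particles, with a median of -0.32, the core proteins Nop58 and Fbl (fibrillarin, the methyltransferase) had -0.54 and -0.37, and their partner Nop56 had 0.07. The other probe set of Fbl gave -0.10. Of the RNA polymerase I subunits, Polr1a, the largest, had -0.39, Polr1b had -0.24 and Polr1e had 0.21.

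**Figure D2:**
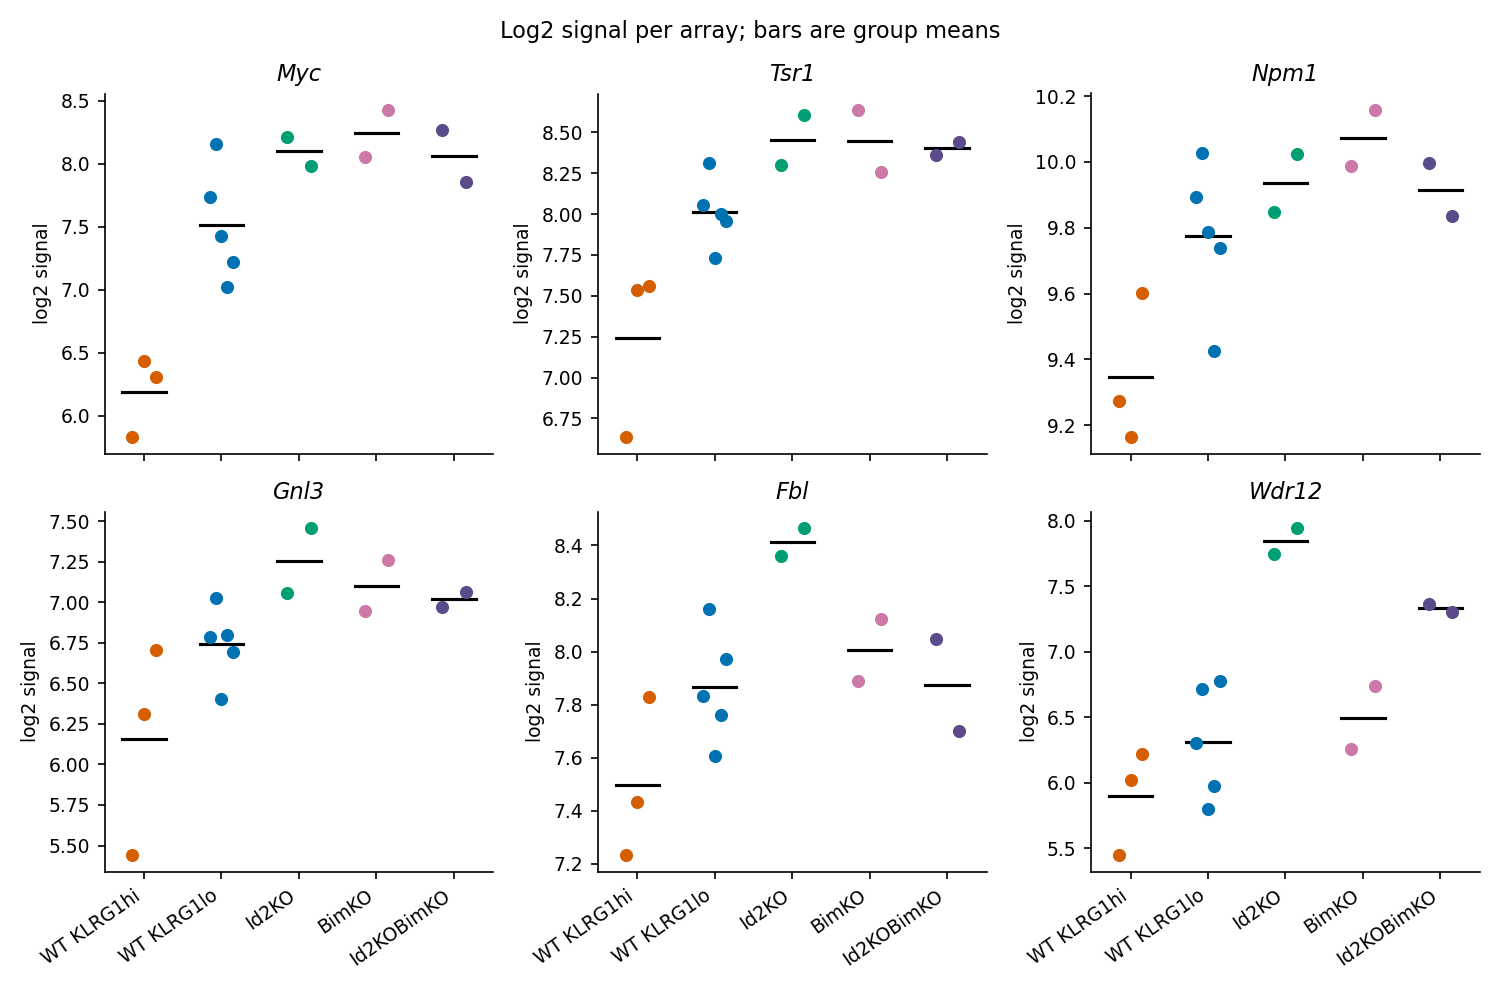
Log2 signal (vertical axis, scaled per gene) of 5 of the 35 genes and of Wdr12 on each array, with 1 point per array by group and a bar at each group's mean. For Myc the KLRG1hi arrays lie between 5.83 and 6.44, below every other array, and for Wdr12 all 4 arrays without Id2 lie between 7.30 and 7.95, above every other array.

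When the spread of each array entered the fit as a covariate, 7 of the 35 genes (20%) fell in KLRG1hi cells, against 2.6% of all genes called in either direction. These were Myc (-1.42, adjusted p = 2.81e-05), Nop58 (-0.68), Tsr1 (-0.84), Gnl3 (-0.68), Fbl (-0.43), Npm1 (-0.48) and Polr1a (-0.47), all by limma with adjusted p between 2.81e-05 and 0.0431. The value of Fbl is that of its brighter probe set, and the other gave -0.10 without the covariate. With this covariate 33 of 35 differences were negative, and the median was -0.25.

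Other gene lists place these values. Of 86 further ribosome biogenesis genes tested, 1 fell and none rose, with a median difference of -0.05. This was Mdn1, an ATPase that remodels large subunit precursors, with -0.78 (SE 0.17, adjusted p = 0.0292). Its call held under 13 of 22 alternatives and was lost, among others, within the second background set (-0.37) and without the arrays of high Cd74 (-0.89, adjusted p = 0.330), and without WT KLRG1hi 1, WT KLRG1hi 2, WT KLRG1lo 1 or WT KLRG1lo 5 (-0.63, -0.77, -0.77 and -0.74). None of the 15 genes of the Myc network passed, with a median of -0.01, and the 2 with the smallest p were Mycbp2 at -0.46 and Mxd4, an antagonist of Myc, at 0.36. None of 23 Myc targets outside the nucleolus passed, with a median of -0.01. Srm, spermidine synthase, had -0.46 (adjusted p = 0.385). None of 9 other genes of the RNA polymerase I machinery, 19 translation factors or 56 cytosolic ribosomal proteins passed, and their medians were 0.02, -0.04 and -0.09. By unadjusted p under 0.05 the Myc network held 1 higher and 1 lower gene, the ribosomal proteins 3 lower, and the Myc targets, polymerase genes and translation factors 1 lower each, against 4.34% of all genes as higher and 2.86% as lower.

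Cell cycle genes ran the other way. Of 38 tested, 8 rose in KLRG1hi cells (0.679% of all genes tested did), all 38 differences were positive, and the median was 0.54. Kif11, a mitotic motor, rose by 1.05 (SE 0.19, adjusted p = 0.0107), and Mki67, the proliferation marker, by 0.90 (SE 0.19, adjusted p = 0.0259). On single arrays the cell cycle median was 7.48, 7.78 and 7.49 in KLRG1hi and 6.90 to 7.22 in KLRG1lo. The KLRG1hi arrays were thus the highest of all 14 in cell cycle genes and the lowest of all 14 in Myc.

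**Figure D3:**
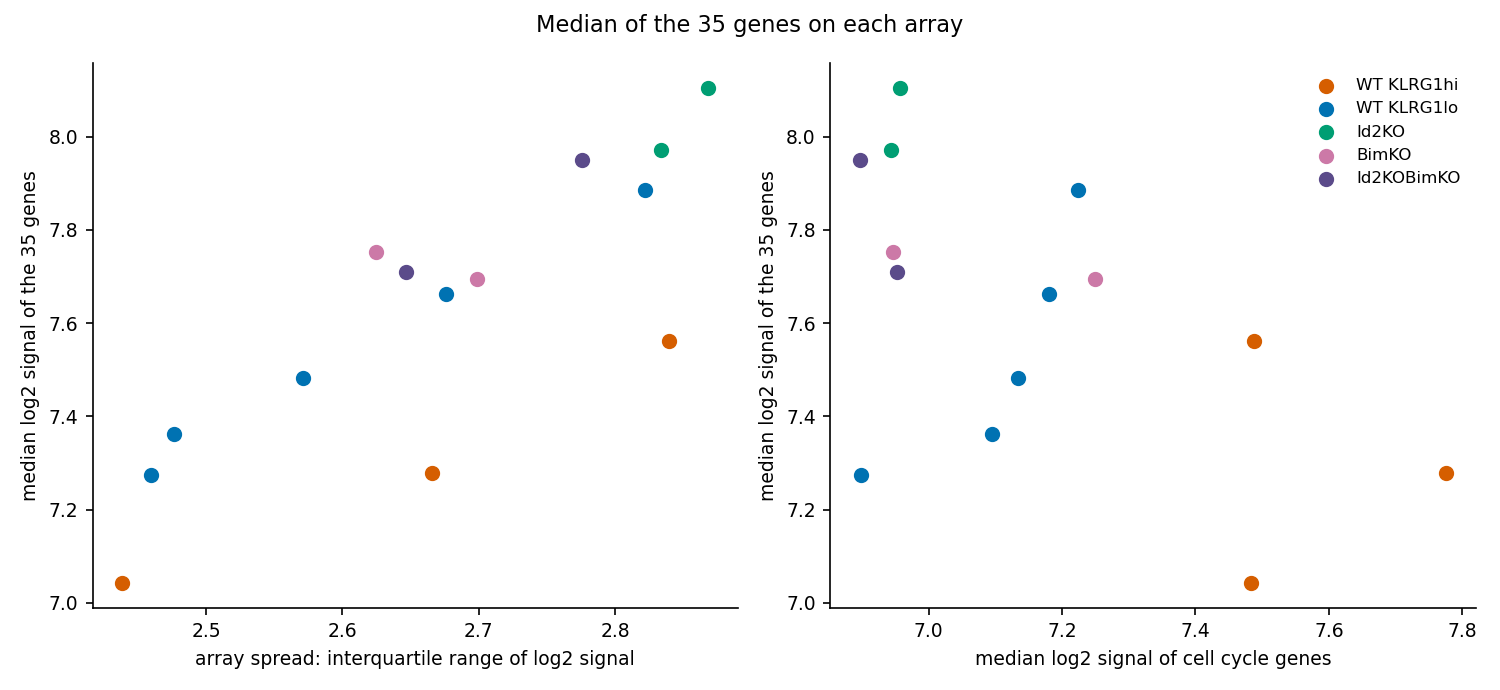
Median log2 signal of the 35 genes on each array (vertical axes) against the array's spread (left, interquartile range of log2 signal) and against its median log2 signal of cell cycle genes (right); each point is 1 array, coloured by group. On the left the points rise from 7.04 at a spread of 2.44 to 8.11 at 2.87, with WT KLRG1hi arrays under the others at like spread, and on the right the 3 WT KLRG1hi arrays stand apart at 7.48 or more.

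Markers of other cells differed between the 2 WT groups too. All 8 B cell markers tested had negative differences, with a median of -0.41 and Cd74 at -2.0 (adjusted p = 0.398). None passed, and 4 of the 8 had an unadjusted p under 0.05 as lower. Their summed linear signal was 327 to 393 in KLRG1hi and 414 to 983 in KLRG1lo. Of 11 myeloid markers 8 were negative and none passed, with a median of -0.40, yet the sum was 1792 to 2919 in KLRG1hi and 1629 to 2336 in KLRG1lo, with Itgax, which activated CD8+ T cells also make, at 0.66. The 4 markers of red cell precursors were all negative, with sums of 194 to 238 and 187 to 597. No marker measured was at 0 on any array. Probe sets that name no gene also had median log2 signals of 5.01 to 5.39, so a signal above 0 does not by itself show such cells. The sums did differ by array. On the 5 arrays of high Cd74, itself a listed B cell marker, B cell sums were 678 to 983, against 327 to 488 on the others. Red cell precursor sums there were 340 to 727, against 181 to 238. Myeloid sums overlapped, at 1629 to 2336 and 1392 to 2919. Whether such cells were present was not tested. Their part in the differences of the 35 genes was not tested beyond the fit without the 5 arrays of high Cd74. In these bulk samples fewer cells that make a transcript and less of it per cell cannot be told apart.

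The comparison of Id2KO with WT KLRG1lo cells, the one in the title of the series, gave positive differences for all 35 genes, and none passed. Positive differences made up 52.2% of all genes tested. The median was 0.44, against 0.03 over all genes. By limma no gene of the 35 had an adjusted p under 0.05, 15 had an unadjusted p under 0.05 in the higher direction (10.7% of all genes did), and 0.0831% of all genes passed as higher and 0.111% in either direction. For 18 of the 35 both Id2KO arrays lay above all 5 WT arrays, which was so for 14.2% of all genes.

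Utp15, a scaffold of the small subunit processome, had the largest difference of the 35. Its log2 signal was 7.19 and 7.17 in Id2KO and 6.74, 7.02, 5.73, 5.93 and 6.00 in WT KLRG1lo. The groups did not overlap, although WT KLRG1lo 1 and 2 stood near the Id2KO pair and the 3 arrays of high Cd74 far below. The difference was 0.89 (SE 0.31, adjusted p = 0.275, limma).

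Nop56 and Fbl, core proteins of the particles that guide methylation of ribosomal RNA, had smaller differences. Nop56 had 8.50 and 8.44 in Id2KO against 8.10, 8.29, 7.61, 7.35 and 7.83 in WT KLRG1lo, a difference of 0.64 (SE 0.23). Fbl had 8.36 and 8.47 against 7.83, 8.16, 7.61, 7.76 and 7.97, a difference of 0.55 (SE 0.19). For both genes the Id2KO arrays lay above every WT KLRG1lo array, and the adjusted p was 0.275. The second probe set of Fbl gave -0.03 for the same difference, so its probe sets disagree here.

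Nop2, a methyltransferase needed for the large subunit, had 8.03 and 7.93 in Id2KO and 7.54, 7.82, 7.30, 7.02 and 7.45 in WT KLRG1lo. The difference was 0.56 (SE 0.19, adjusted p = 0.275), and the groups did not overlap. Myc had 8.21 and 7.98 in Id2KO, and WT KLRG1lo 2, at 8.16, lay between them. Its difference was 0.59 (SE 0.26, adjusted p = 0.275), which does not pass. By role, the medians of the difference were 0.44 for RNA polymerase I, 0.50 for proteins of small nucleolar RNA particles, 0.42 for small subunit factors, 0.40 for large subunit factors and 0.41 for the abundant nucleolar proteins. The smallest differences of the 35 were those of Rrp9 (0.14), a protein of the U3 particle, and Npm1 (0.16).

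**Figure D4:**
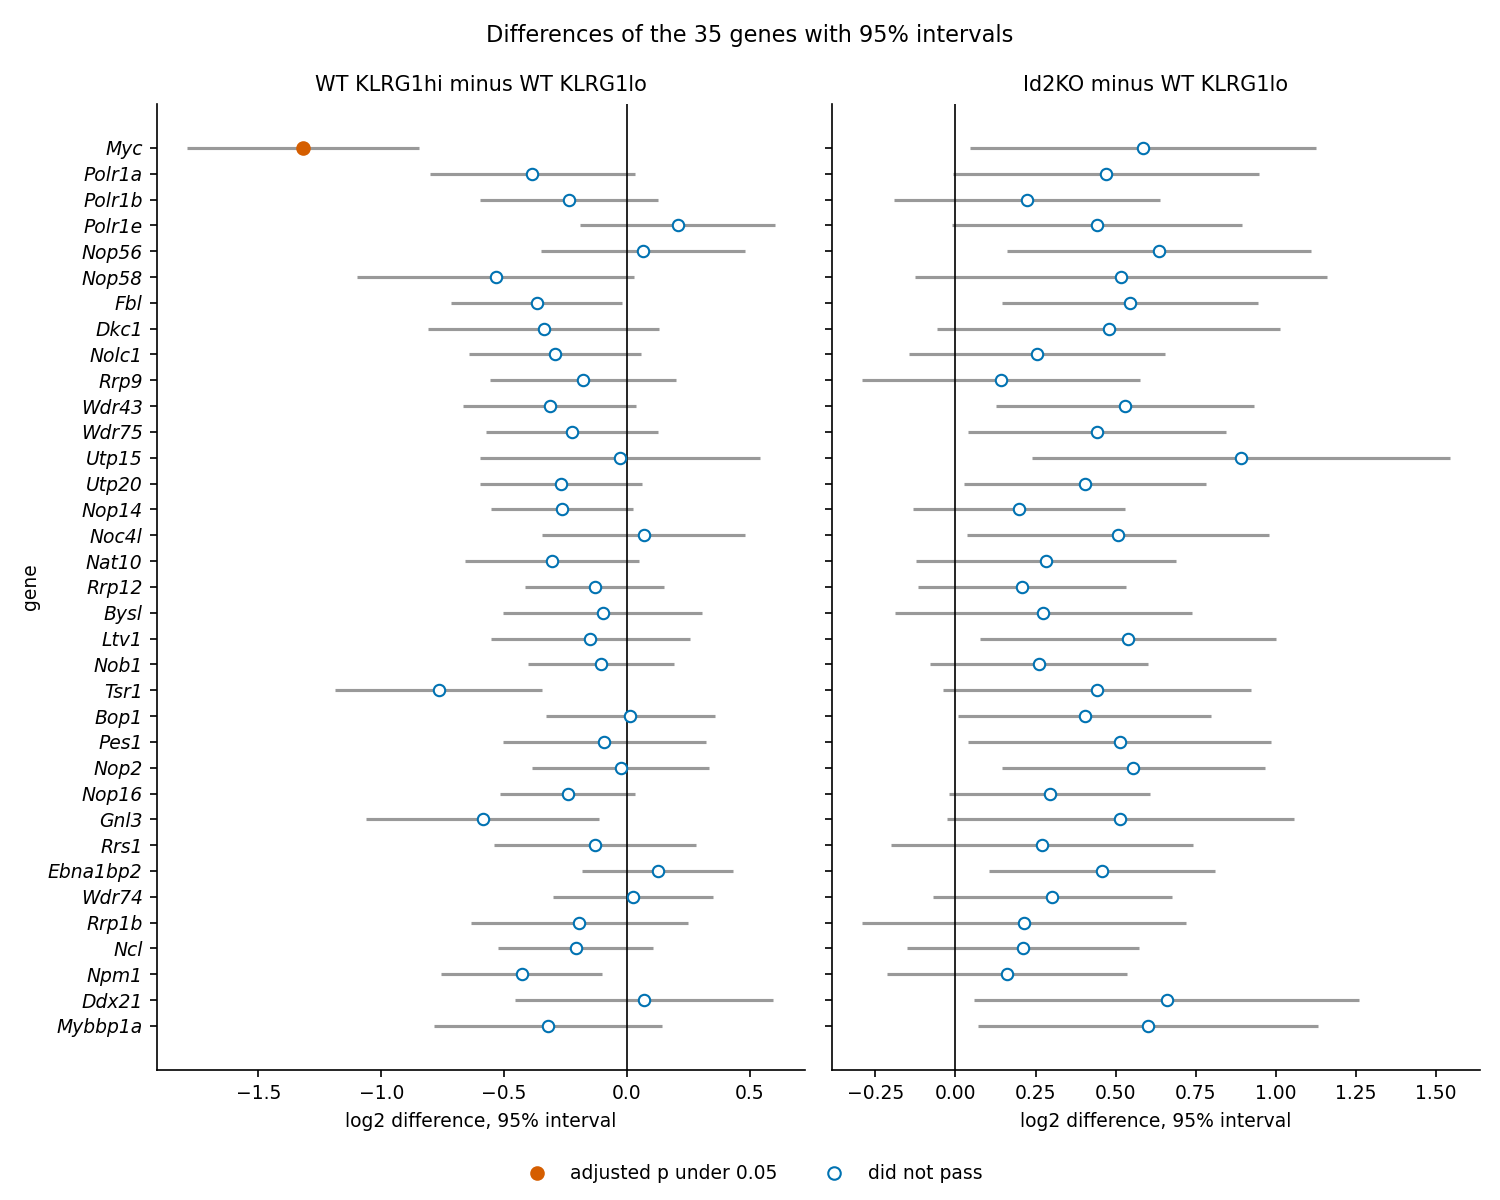
Log2 difference of each of the 35 genes (rows) with its 95% interval (horizontal bars), for WT KLRG1hi minus WT KLRG1lo on the left and Id2KO minus WT KLRG1lo on the right; the axes differ in scale, filled points passed at an adjusted p under 0.05 and open points did not. Myc at -1.32 is the single filled point, 28 of the points on the left are below 0, and all 35 on the right are above it.

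The median changed with the arrays and with their spread. With the spread of each array as a covariate the median of the 35 was 0.07 and 25 were positive. Without the 5 arrays of high Cd74 it was 0.18 with 32 positive, and after quantile normalization it was 0.23 with 31 positive. Within the first background set the median was 0.15. Within the second, where Id2KO 2 is set against WT KLRG1lo 3, 4 and 5, it was 0.67, and 17 of the 35 passed in a fit that called 2405 genes in all. B cell markers had a median difference of -0.43 in Id2KO, 7 of 8 of them negative, with sums of 383 to 441 in Id2KO against 414 to 983 in WT KLRG1lo. Myeloid markers had -0.54, 10 of 11 negative, with sums of 1499.5 to 1674 against 1629 to 2336. Red cell precursor markers were all negative, with sums of 181 to 195 against 187 to 597. No marker of these lists passed, and all 10 T cell markers were positive, with a median of 0.32.

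Of the further ribosome biogenesis genes, 83 of 86 had positive differences, with a median of 0.45. With the spread covariate 61 were positive and the median was 0.074. 1 of the 86, Wdr12, passed and rose. Wdr12 joins Pes1 and Bop1 in the complex that processes large subunit RNA. Its log2 signal was 7.74 and 7.95 in Id2KO and 6.30, 6.71, 5.80, 5.98 and 6.78 in WT KLRG1lo, and every Id2KO array lay above every WT array. The difference was 1.53 (SE 0.26, adjusted p = 0.0191, limma). It stayed positive, from 1.02 to 1.76, under all 21 alternatives and passed in 12 of them. It missed the threshold with the spread covariate (1.02, adjusted p = 0.129) and without the arrays of high Cd74 (1.34, adjusted p = 0.500), and without Id2KO 1, Id2KO 2 or WT KLRG1lo 4 (1.63, 1.43 and 1.45). Its partners Pes1 and Bop1 had 0.51 and 0.40 and did not pass.

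Other growth genes also had positive medians in Id2KO, and none passed. The medians were 0.41 over 23 Myc targets, 0.38 over 19 translation factors, 0.36 over 56 cytosolic ribosomal proteins and 0.36 over 9 further genes of the RNA polymerase I machinery. The Myc network had 0.15 over 15 genes. With the spread covariate the median was 0.015 for the Myc targets and 0.028 for the ribosomal proteins. Cell cycle genes had a median of -0.25, with 26 of 38 negative, and none passed. By unadjusted p under 0.05, 13 ribosomal protein genes, 7 Myc targets and 7 translation factors were higher (10.7% of all genes were). So were 39 of the 86 further ribosome biogenesis genes. As lower there were 1 ribosomal protein gene, 1 further ribosome biogenesis gene and 12 cell cycle genes (7.38% of all genes were).

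On the Bim-deficient background the median was nearer to 0. Between Id2KOBimKO and BimKO none of the 35 genes passed by limma, and none had an unadjusted p under 0.05. Over all 14438 genes 0% passed, 132 had an unadjusted p under 0.05 as higher and 130 as lower. The median difference of the 35 was 0.08, against 0.03 over all genes, with 23 positive (56.7% of all genes were), and 10 had both Id2KOBimKO arrays above both BimKO arrays (17.6% of all genes did).

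Pes1 came first by p in this comparison. It had 8.20 and 7.99 in Id2KOBimKO and 7.79 and 7.65 in BimKO. The difference was 0.37 (SE 0.27, adjusted p = 1.00). Polr1b had 0.29, Mybbp1a, a nucleolar protein that binds Myb, had 0.31 and Noc4l had 0.27. Myc had 8.27 and 7.85 in Id2KOBimKO and 8.05 and 8.43 in BimKO, which overlap, and its difference was -0.18. Wdr12 had 7.36 and 7.30 against 6.26 and 6.74, a difference of 0.84 that did not pass.

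The average of both comparisons of cells without and with Id2 includes Id2KO minus WT KLRG1lo, where Id2 status and sex cannot be told apart. In that average all 35 genes were positive (52.6% of all genes were). The median was 0.23, against 0.02 over all genes, and none passed by limma (0.18% of all genes did). Other lists were alike, with 82 of 86 further ribosome biogenesis genes positive (median 0.26). So were 18 of 19 translation factors (median 0.28) and all 10 T cell markers (median 0.27). Of the cell cycle genes 31 of 38 were negative. With the spread covariate 22 of 35 were positive and the median was 0.062. 5 of the 35 had an unadjusted p under 0.05 as higher, against 4.88% of all genes. These were Pes1 at 0.44, Mybbp1a at 0.46, Ddx21 at 0.50, Noc4l at 0.39 and Bop1 at 0.31, with adjusted p of 0.620 each. Myc had 0.20. Wdr12 rose by 1.18 (SE 0.20, adjusted p = 0.0137), and it passed under 15 of 24 alternatives. Its call was lost without the arrays of high Cd74 (1.22, adjusted p = 0.395), and without either Id2KO array, either Id2KOBimKO array or BimKO 1 (1.13 to 1.23 for the Id2KO arrays, 1.17 to 1.20 for the Id2KOBimKO arrays and 1.06 for BimKO 1).

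The difference between these Id2 effects, the interaction of Id2 and Bim, was taken as Id2KOBimKO minus BimKO less Id2KO minus WT KLRG1lo. It too draws on the Id2KO arrays, so sex cannot be told apart from Id2 status in it. It was negative for 34 of 35 genes (51.8% of all genes), with a median of -0.31, and none passed (0.0277% of all genes did). Other growth lists ran the same way, with 77 of 86 further ribosome biogenesis genes negative (median -0.36). So were 50 of 56 cytosolic ribosomal proteins (median -0.47) and 21 of 23 Myc targets (median -0.34). Of the cell cycle genes 20 of 38 were negative (median -0.008). 2 of the 35 genes had an unadjusted p under 0.05 as lower, against 1.79% of all genes. Fbl had -0.68 (SE 0.30), Nop56 had -0.75 (SE 0.35), Utp15 had -0.96 (SE 0.48), Nop2 had -0.59 (SE 0.30) and Myc had -0.77 (SE 0.40), all with an adjusted p of 0.726. The Fbl value is from its brighter probe set, and the other gave -0.03 for Id2KO minus WT KLRG1lo. With the spread covariate 15 of 35 were positive and the median was -0.11, and without the 5 arrays of high Cd74 it was 0.02.

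Loss of Bim alone gave no call. Against WT KLRG1lo, none of the 35 and 0% of all genes passed by limma, while 362 genes had an unadjusted p under 0.05 as higher and 636 as lower. Myc, the only one of the 35 with an unadjusted p under 0.05 (2.51% of all genes had one as higher), had the smallest p. It had 8.05 and 8.43 in BimKO, and WT KLRG1lo 2, at 8.16, lay between them, for a difference of 0.73 (SE 0.26, 95% interval 0.19 to 1.27, adjusted p = 0.657). Nop56 had 0.45, Tsr1 had 0.44 and Utp15 had 0.56. The median was 0.14, with 26 of 35 positive (47.3% of all genes were), against -0.02 over all genes, and 0.059 with 22 positive under the spread covariate. In 1 gene, Wdr75 of the small subunit processome, both BimKO arrays lay above all WT arrays (5.6% of all genes did). Without the arrays of high Cd74, where 1 BimKO array is left, the median was -0.04 and Myc had 0.11.

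Between Id2KOBimKO and WT KLRG1lo none of the 35 passed (0.0623% of all genes did), and Myc alone had an unadjusted p under 0.05, against 2.04% of all genes as higher. Myc had a difference of 0.55 (SE 0.26, adjusted p = 0.785). Wdr75 had 7.05 and 7.61 in Id2KOBimKO and 6.97, 7.0, 6.85, 6.90 and 6.96 in WT KLRG1lo, a difference of 0.40 with no overlap. Tsr1, also without overlap, had 0.39, and Wdr43, a processome subunit, had 0.34. 33 of 35 differences were positive (49.8% of all genes), with a median of 0.25, and 2 genes had both arrays above all WT arrays (5.29% of all genes did). With the spread covariate 27 were positive and the median was 0.085. These comparisons with WT KLRG1lo share the same 5 control arrays.

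The remaining genes are given by their range of log2 signal over the 14 arrays. Among snoRNA particle proteins, Nop58 ran from 6.28 to 8.27, Dkc1, the pseudouridine synthase, from 7.02 to 8.37, Nolc1, a chaperone of these particles, from 7.22 to 8.23 and Rrp9 from 6.73 to 7.50. Polr1a ran from 6.26 to 7.61, Polr1b from 6.38 to 7.30 and Polr1e from 6.91 to 8.11.
Among small subunit factors, Wdr43 ran from 8.52 to 9.88, Wdr75 from 6.41 to 7.61, Utp20 from 6.19 to 7.19, Nop14 from 7.77 to 8.50 and Noc4l from 6.78 to 7.80. Nat10, which acetylates small subunit RNA, ran from 6.98 to 8.0, Rrp12, an export factor, from 6.61 to 7.12, Bysl from 6.22 to 7.34, Ltv1 from 6.49 to 7.77 and Nob1, the nuclease that makes the last cut, from 7.76 to 8.31. Rrp12 had the narrowest range of the 35 and Myc the widest.
Among large subunit factors, Bop1 ran from 7.23 to 8.13, Pes1 from 7.24 to 8.53, Nop16 from 6.77 to 7.51, Rrs1 from 6.64 to 7.61, Ebna1bp2 from 7.48 to 8.33, Wdr74 from 7.49 to 8.25 and Rrp1b from 6.33 to 7.38. Ncl, or nucleolin, ran from 9.90 to 10.64, Ddx21 from 8.51 to 9.68 and Mybbp1a from 7.09 to 8.51. Ncl, Ltv1 and Rrp9 each had 1 WT KLRG1lo array apart from the other 4.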

How the data were processed

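RNA of sorted cells was amplified in repeated rounds and labelled with biotin, per the labels' protocols, and hybridised to 1 single-colour array per sample. The deposited values are an intensity on a linear scale, made with RMA per the submitters' processing notes, which also name mm9. As generally run, RMA corrects background, aligns the probe distributions of the arrays and summarises probes, which compresses differences at low signal.

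Log2 was taken with no offset. Of 34760 probe sets 21640 name 1 gene, 1321 several and 11799 none. Symbols of 21553 were updated by Entrez number through RefSeq (GRCm38.p6), leaving 19937 genes, each with its brightest probe set. Genes above the 40th percentile of an array on at least 2 arrays were tested (14438). limma 3.58.1 in R 4.3.3 fitted 5 group means to all 14 arrays, with eBayes and two-sided tests adjusted by Benjamini-Hochberg over all genes tested, at 0.05. The number of arrays limits the precision. The script was tested on simulated data.

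The 35 genes and the other lists were chosen with earlier results of these data known. The text names all 35 genes, for each comparison those that passed or, where none did, the 4 of smallest unadjusted p with Myc, and up to 4 genes from each other list. Lists fitted cell cycle, growth and marker genes of T, B, myeloid and red cells. No 2 arrays held identical values. Deviations of same-numbered samples had correlations from -0.52 to 0.41, and 10 of 21 were over 0.1. Between groups of 2 arrays the correlations repeat, so the 21 are not separate checks. With no common sign the numbers were not taken as pairs, and a replicate block was fitted as an alternative. Alternatives changed the offset, filter, scaling, test, probe set choice, array spread, background set and arrays left out.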

Additional observations from a re-analysis of the deposited data

Results flagged for a closer look

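Of 37 checks of the 5 WT KLRG1lo arrays, over the 35 genes and 2 list medians, 3 found 1 array far from the other 4, and chance finds about 1 in 20. Rrp9, a protein of the U3 particle, had a log2 signal of 6.735 on WT KLRG1lo 4, and the nearest other array had 7.172. Ltv1, a factor of small subunit assembly, had 7.28 on WT KLRG1lo 2, and the nearest had 6.837. Ncl, nucleolin, had 10.1 on WT KLRG1lo 1, and the nearest had 10.32. They lie on different arrays. Of the 35 genes, 12 had a positive difference for Id2KO minus WT KLRG1lo and a negative one for Id2KOBimKO minus BimKO. All 35 were positive in the first, where Id2 status and sex cannot be told apart. The 12 are thus those negative in the second, as were 43.3% of all genes. For none of them did the arrays stand fully apart in both comparisons, and none of the 35 passed the test of the interaction.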

How the results depend on the processing

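Myc stayed lower in KLRG1hi cells under all 22 alternatives, from -1.81 to -0.92, and passed in 21, with median centring the exception (adjusted p = 0.0511). Leaving out single arrays gave -1.44 to -1.14. The count of the 35 genes that passed in that comparison was 1, with 136 of all genes called. It became 2 after quantile normalization (226 of all genes), 0 with median centring (61), 7 with the spread covariate (376), 7 within the first background set (260) and 2 within the second (1388, with 1 KLRG1hi array). It was 1 to 2 without single arrays, and 2 without WT KLRG1hi replicate 3 (172). The median of the 35 was -0.48 within the first set, 0.13 within the second, and -0.30 to -0.10 without single arrays, nearest 0 without WT KLRG1hi replicate 1. Gnl3 reversed within the second set (0.076).

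For Id2KO against WT KLRG1lo the median was 0.067 with the spread covariate, 0.15 within the first set, 0.67 within the second, where 17 of the 35 passed with 2405 of all genes, and 0.18 without the arrays of high Cd74. Within the second set 2 of the 35 passed in BimKO against WT KLRG1lo (105 of all genes) and 1 in the interaction (63), whose median was -0.61 there and 0.017 without the arrays of high Cd74. Without those arrays Myc reversed between Id2KOBimKO and BimKO (0.21) and in the interaction (0.060), and Utp15 reversed in BimKO against WT (-0.33) and in the interaction (0.30). Myc also reversed between Id2KOBimKO and BimKO without BimKO replicate 2 (0.0061) and without Id2KOBimKO replicate 2 (0.027; -0.39 without Id2KOBimKO replicate 1), and in the mean Id2 effect with the spread covariate (-0.11). The cause was not tested. The other counts and medians over the 35 genes kept their call or moved by less than the spread between arrays.

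Over all genes, the number called ran from 33 to 1388 between the WT groups, 136 as reported, and from 4 to 2405 for Id2KO against WT, 16 as reported. It ran from 0 to 4 for Id2KOBimKO against BimKO, 3 to 52 for the mean Id2 effect, 0 to 105 for BimKO, 0 to 24 for Id2KOBimKO against WT and 1 to 63 for the interaction. With the replicate block, Myc fell by 1.58 in KLRG1hi cells (adjusted p = 0.00752), the medians were -0.24 between the WT groups and 0.33 for Id2KO, and 42 and 5 genes were called. The block changed no call of the 35 genes. It took the calls of Mdn1 between the WT groups (adjusted p = 0.133) and of Wdr12 in Id2KO (0.123) and in the mean Id2 effect (0.0551) over 0.05, and that of Id2 in Id2KO too (0.265). BimKO has no array in the first background set, so comparisons with it have no value there. Groups of 2 arrays and probe signals near background limit what these data can show.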
